A study of Mus musculus with 8 samples.

Results

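The 10 genes described here encode the elastic fibre proteins Eln, Fbn1, Fbn2, Fbln5 and Mfap5 and the 5 lysyl oxidases Lox, Loxl1, Loxl2, Loxl3 and Loxl4. They were taken by name from the 49671 gene rows of each count file, and all 10 were found. Read counts came from polyadenylated RNA of 4 BMPR2 DELX mutant samples and 4 ROSA samples, which served as the control, and the label of every sample was mouse adipocytes. Age, sex, strain background, the construction of the mutant allele and whether samples came from separate animals are not given in the sources used here, so p-values measure the spread between these samples. Each library held 28799445 to 43684785 counts over all genes. Levels are CPM, the counts of a gene per 1000000 counts of the library, scaled by trimmed mean of M values (TMM) factors, and group values are mean ± SD over 4 libraries.

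An elastic fibre is built from a core of crosslinked elastin on a scaffold of microfibrils. Fibrillins form the microfibril, microfibril-associated glycoproteins bind along it, and fibulins bring the soluble elastin precursor and the crosslinking enzymes to it. Lysyl oxidases are copper-dependent amine oxidases that oxidize lysines in elastin and collagen, after which the chains bond to each other covalently. The same enzymes stiffen the collagen matrix around fat and blood vessels.

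Most defining adipocyte markers were near the floor. Of 10 such markers 7, including Adipoq, Lep and Plin1, were under 1 CPM in all 8 libraries. The other 3 were detected, with Lpl at 172 to 246 CPM in BMPR2 DELX, against 119 to 160 CPM in ROSA, Fabp4 at 33.8 to 59.7 CPM in BMPR2 DELX, against 48.8 to 74.4 CPM in ROSA, and Pparg at 18.3 to 26.3 CPM in BMPR2 DELX, against 12.4 to 18.6 CPM in ROSA. The summed level of 8 smooth muscle markers was 9662 to 13127 CPM in BMPR2 DELX, against 11321 to 15234 CPM in ROSA, and that of 8 fibroblast markers was 10598 to 15503 CPM in BMPR2 DELX, against 9800 to 12059 CPM in ROSA. All 8 smooth muscle markers had negative log2 fold changes without passing. Of these, Myocd was lower in every mutant library (log2 fold change -0.56, edgeR adjusted p 0.071). Endothelial markers summed to 307 to 1355 CPM in BMPR2 DELX, against 571 to 1320 CPM in ROSA, and were lowest in BMPR2 DELX 3 and ROSA 3. Adipocyte markers summed to 252 to 308 CPM in BMPR2 DELX, against 201 to 234 CPM in ROSA, and macrophage and leukocyte markers to 37.4 to 70.1 CPM in BMPR2 DELX, against 25.0 to 36.4 CPM in ROSA, so that both sums were higher in every mutant library. Lpl made up most of the adipocyte sum. The log2 fold change was -0.29 for Fabp4 and 0.44 for Pparg (edgeR adjusted p 0.365 and 0.086). Csf1r, the highest leukocyte marker, overlapped, at 21.1 to 38.1 CPM in BMPR2 DELX, against 19.5 to 26.6 CPM in ROSA. Of the 10 leukocyte markers 6, including Ptprc, Adgre1 and C1qa, stayed under 1 CPM in all 8 libraries. Epithelial and mesothelial markers summed to 77.0 to 119 CPM in BMPR2 DELX, against 74.6 to 96.7 CPM in ROSA. In 4 of these lists 1 marker was called, each higher in BMPR2 DELX, where 9.10% of all genes tested were called. Col3a1 was 1 of 7 tested fibroblast markers (log2 fold change 1.25, edgeR adjusted p 0.0013) and Lpl 1 of 3 adipocyte markers (0.58, 0.024). Cd68 was 1 of 4 tested leukocyte markers (0.72, 0.024) and Pax8 1 of 9 epithelial and mesothelial markers (3.38, 0.047). Pax8 was low and its groups overlapped, at 0.290 to 4.49 CPM in BMPR2 DELX, against 0.0584 to 0.315 CPM in ROSA. In the same list Krt19 was lower in every mutant library without passing (-1.12, 0.052), and Msln also had a negative log2 fold change (-1.02, 0.21). Krt8, Krt18, Krt7, Cdh16, Upk3b and Wt1 went the other way without passing, from 0.24 for Wt1 to 3.14 for Krt8, with overlapping groups. A set of 10 immediate early genes set ROSA 1 and ROSA 2 apart, at 1242 and 1384 CPM in sum, from ROSA 3 and ROSA 4 at 281 and 282 CPM and from BMPR2 DELX at 251 to 292 CPM. The BMP receptor gene Bmpr2, for which the mutant is named, had 237, 208, 201 and 199 CPM in BMPR2 DELX 1 to 4, against 216, 207, 183 and 183 CPM in ROSA 1 to 4 (log2 fold change 0.10 ± 0.08 SE, edgeR adjusted p 0.47). Gene totals do not resolve single exons, so a deletion of part of the gene could not be checked.

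Among the 10 genes, Fbln5 fell in BMPR2 DELX, and Loxl4 was lower by a like amount without passing the test. Lox was the most abundant by a wide margin, Eln was nearly silent, and no other member passed the test. Of the 9 genes with enough counts to test, 1 was called lower, 0 were called higher and 8 missed the threshold, an edgeR quasi-likelihood adjusted p below 0.05. Among all 14887 genes tested, 9.10% were called, 3.96% higher and 5.15% lower, so 1 of 9 is close to the share over all genes. For 1 of the 9 the groups did not overlap, with BMPR2 DELX lower, where 18.0% of all genes had groups that did not overlap, 8.32% with BMPR2 DELX higher and 9.65% lower. With upper-quartile factors in place of TMM factors, 54.8% of all calls were higher, against 43.5% with TMM factors, and the members' count stayed at 0 higher and 1 lower. In bulk RNA, fewer cells of a type and less RNA per cell cannot be told apart.

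The sequences before the transcription starts of Fbln5 and Loxl4 are shown because these 2 genes had the largest negative log2 fold changes of the set. RefSeq (GRCm38.p6) promoter entries matched 3 of the 10 genes, Fbln5, Loxl4 and Fbn1. Each window holds the 250 bases before the start, on the minus strand, at chr12:101819120-101819369 for Fbln5 and chr19:42612807-42613056 for Loxl4. Capitals mark matches on either strand to the letters searched, each of which is commonly tied to a factor. The SMAD letters were GGCGCC in one form, CAGAC in another and GTCTAGAC as the palindrome. Sp1 was searched as GGGCGG, the factor AP-1 as TGACTCA, the factor TEAD as CATTCC and the TATA box as TATAAA.
Fbln5: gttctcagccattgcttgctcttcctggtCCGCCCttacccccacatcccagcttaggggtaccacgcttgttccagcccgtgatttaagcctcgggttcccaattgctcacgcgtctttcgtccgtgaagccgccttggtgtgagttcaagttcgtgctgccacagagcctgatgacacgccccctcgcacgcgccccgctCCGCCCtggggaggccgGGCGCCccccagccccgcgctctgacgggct
Loxl4: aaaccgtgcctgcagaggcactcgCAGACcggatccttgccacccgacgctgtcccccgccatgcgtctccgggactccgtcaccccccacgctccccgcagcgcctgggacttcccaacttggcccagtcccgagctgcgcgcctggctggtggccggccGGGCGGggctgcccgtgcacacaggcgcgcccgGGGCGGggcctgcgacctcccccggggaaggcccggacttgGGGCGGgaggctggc

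The Fbln5 window held 2 matches to GGGCGG and 1 to GGCGCC, and the Loxl4 window held 3 matches to GGGCGG and 1 to CAGAC. Over all 32851 RefSeq windows of this length, GGGCGG was found in 32.7%, GGCGCC in 9.59% and CAGAC in 42.2%. Matches to the other letters, which 0.167% (GTCTAGAC), 4.46% (TGACTCA), 12.6% (CATTCC) and 12.4% (TATAAA) of windows held, were in neither promoter. A match describes these letters and is not a binding site. RefSeq also gives a downstream start for Fbln5, whose window is not shown. That window held 2 matches to CAGAC, 1 to GGCGCC and 0 to GGGCGG, and counts per gene do not tell the starts apart.

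Fbln5 encodes fibulin-5, which binds elastin, integrins and the lysyl oxidase Loxl1 and is needed for elastic fibre assembly in mice. The gene lies on GRCm38 chromosome 12 from 101746565 to 101819055, and no other annotated gene overlaps it. Its level was 75.5, 79.6, 113 and 92.2 CPM in BMPR2 DELX 1 to 4, against 162, 140, 149 and 133 CPM in ROSA 1 to 4. Every BMPR2 DELX library lay below every ROSA library, and the highest mutant library, BMPR2 DELX 3, was the nearest to the controls. The mean was 90.2 ± 17.1 CPM in BMPR2 DELX, against 146 ± 12.6 CPM in ROSA. It fell by 0.69 on the log2 scale (SE 0.12, edgeR adjusted p 0.012), to 61.8% of the ROSA level. The gene was called in each of the 8 fits that left out 1 library, with log2 fold changes of -0.82 to -0.61. Without both ROSA 1 and ROSA 2 the call was lost, at -0.63 and an edgeR adjusted p of 0.11. Without BMPR2 DELX 3 and ROSA 3, the libraries lowest in endothelial markers, it was -0.81 with an adjusted p of 0.011.

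Among the other elastic fibre genes, no difference passed. Eln (GRCm38 chromosome 5, 134702593 to 134747323), which encodes tropoelastin, had 2, 6, 2 and 9 counts in BMPR2 DELX 1 to 4 and 2, 9, 0 and 1 counts in ROSA 1 to 4. These are 19 counts in BMPR2 DELX and 12 in ROSA over 4 libraries each, too few for the count filter, so Eln was not tested. A count of 0 allows up to 3 counts, or 0.0990 counts per 1000000 in ROSA 3, a limit that covers counting error only. Over all libraries 31 counts were on the strand of Eln and a further 12 on the other strand, where an annotated gene shares 267 exon bases. The gene for elastin was thus at the edge of detection in both groups, while most genes for its scaffold and its crosslinkers were well expressed.

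Fbn1 (chromosome 2, 125300594 to 125507993) encodes fibrillin-1, the main fibrillin of adult microfibrils. It had 976, 1260, 1283 and 1503 CPM in BMPR2 DELX 1 to 4, against 1159, 1225, 1359 and 1356 CPM in ROSA 1 to 4. BMPR2 DELX 1 was the lowest library and BMPR2 DELX 4 the highest, so the ROSA range lay inside the mutant range. The log2 fold change was -0.02 ± 0.12 (SE, edgeR adjusted p 0.93). The sign was not stable over other settings, as it turned to 0.09 without BMPR2 DELX 1 and to 0.02 with upper-quartile factors. Fbn1 shares 2442 exon bases with the opposite-strand gene Gm9913, and its unstranded counts were 96.4% of the strand-specific ones. Fbn2 (chromosome 18, 58008623 to 58210487), the fibrillin prominent in development, had 0.720, 1.89, 0.998 and 0.871 CPM in BMPR2 DELX 1 to 4, against 1.15, 0.801, 0.599 and 0.934 CPM in ROSA 1 to 4. Its log2 fold change of 0.36 ± 0.34 (edgeR adjusted p 0.53) rested on BMPR2 DELX 2, without which it was -0.01.

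Mfap5 (chromosome 6, 122505845 to 122529290) encodes microfibril-associated glycoprotein 2, which binds fibrillins. It had 239, 214, 296 and 307 CPM in BMPR2 DELX 1 to 4, against 184, 173, 256 and 258 CPM in ROSA 1 to 4. ROSA 1 and ROSA 2 lay below all mutant libraries, and ROSA 3 and ROSA 4 lay among them. The log2 fold change of 0.28 ± 0.16 (edgeR adjusted p 0.31) was 0.05 without ROSA 1 and ROSA 2.

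**Figure D1:**
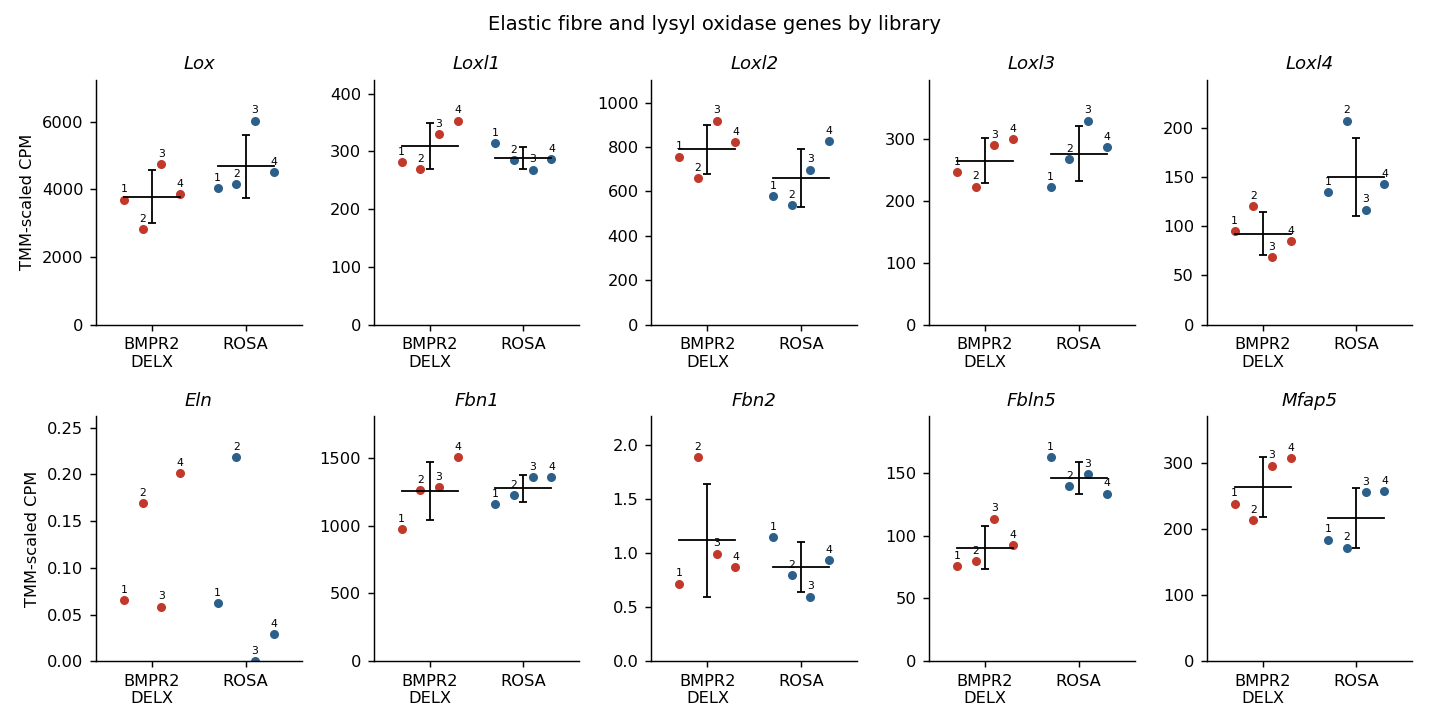
TMM-scaled CPM of the 10 genes in each library, BMPR2 DELX (red) left of ROSA (blue), with the library number above each point, the mean as a line and ± SD as a bar (n = 4). Eln, with 0 to 9 counts per library, has no mean or bar. The BMPR2 DELX libraries of Fbln5, at 75.5 to 113 CPM, all lie below the ROSA libraries, at 133 to 162 CPM, and the groups overlap in the other panels.

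Of the 5 lysyl oxidase genes, 0 were called in either direction, where 9.10% of all genes tested were called. Lox (chromosome 18, 52516067 to 52529867), the founding member, encodes an enzyme that crosslinks both elastin and collagen. It had 3698, 2833, 4745 and 3858 CPM in BMPR2 DELX 1 to 4, against 4033, 4149, 6036 and 4511 CPM in ROSA 1 to 4. The mean was lower in the mutant, but BMPR2 DELX 3 lay above 3 of the 4 ROSA libraries, and ROSA 3 was the highest. The log2 fold change was -0.31 ± 0.17 (SE, edgeR adjusted p 0.28), and it was negative in all 18 other settings, from -0.46 to -0.16.

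Loxl4, whose enzyme carries scavenger receptor domains beside the catalytic one, had the largest difference in this family. The gene is on chromosome 19, from 42593982 to 42612813, with no overlapping gene. Its level was 95.3, 120, 68.4 and 85.0 CPM in BMPR2 DELX 1 to 4, against 134, 207, 117 and 142 CPM in ROSA 1 to 4. The groups overlapped by a narrow margin, since BMPR2 DELX 2 lay just above ROSA 3. The mean was 92.3 ± 21.8 CPM in BMPR2 DELX, against 150.2 ± 39.4 CPM in ROSA, with a log2 fold change of -0.70 ± 0.21 (edgeR adjusted p 0.075). DESeq2 called it at an adjusted p of 0.0069, and its edgeR log2 fold change was -0.50 without ROSA 2 and -0.47 without both ROSA 1 and ROSA 2.

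Loxl2 (chromosome 14, 69609068 to 69695834) encodes an enzyme of the same scavenger receptor type, known for crosslinking basement membrane collagen. It had 757, 659, 919 and 823 CPM in BMPR2 DELX 1 to 4, against 578, 538, 698 and 826 CPM in ROSA 1 to 4. ROSA 3 and ROSA 4 lay among the mutant libraries, and ROSA 1 and ROSA 2 lay below all mutant libraries. The log2 fold change was 0.26 ± 0.15 (edgeR adjusted p 0.29), and 0.07 without ROSA 1 and ROSA 2. Loxl1 (chromosome 9, 58287738 to 58313186), which is needed for elastic fibre upkeep in mice, averaged 309 ± 39.9 CPM in BMPR2 DELX, against 289 ± 19.2 CPM in ROSA (log2 fold change 0.10 ± 0.10, edgeR adjusted p 0.55). Its libraries lay at 269 to 353 CPM in BMPR2 DELX, against 268 to 315 CPM in ROSA. Loxl3 (chromosome 6, 83034173 to 83052562), a further member of the scavenger receptor type, averaged 266 ± 36.5 CPM in BMPR2 DELX, against 277 ± 44.9 CPM in ROSA (log2 fold change -0.06 ± 0.13, adjusted p 0.81). It shares 535 exon bases with Htra2 on the opposite strand, and its sign turned to 0.02 without BMPR2 DELX 2 and to 0.04 without ROSA 3.

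Levels of different genes are set side by side per kilobase of exon (RPKM, the CPM of a gene divided by its exon length in kilobases). Lox stood at 792 ± 164 RPKM in BMPR2 DELX and 980.0 ± 194 RPKM in ROSA, above every other member in each library. Loxl2 came next, with 146 ± 20.3 RPKM in BMPR2 DELX and 122 ± 24.0 RPKM in ROSA. Fbn1 had 104 ± 17.8 RPKM in BMPR2 DELX, against 105 ± 8.19 RPKM in ROSA, and its libraries overlapped those of Loxl2 in both groups. Loxl1 had 93.6 ± 12.1 RPKM in BMPR2 DELX, against 87.5 ± 5.83 RPKM in ROSA. Loxl1 overlapped Fbn1 and Mfap5 in BMPR2 DELX and neither in ROSA. Mfap5 had 73.6 ± 12.5 RPKM in BMPR2 DELX, against 60.7 ± 12.7 RPKM in ROSA and overlapped Loxl3, with 57.7 ± 7.92 RPKM in BMPR2 DELX and 60.2 ± 9.76 RPKM in ROSA. Loxl4 and Fbln5 formed a lower step, at 21.9 ± 5.17 and 13.1 ± 2.47 RPKM in BMPR2 DELX and 35.7 ± 9.36 and 21.1 ± 1.82 RPKM in ROSA. Loxl4 and Fbln5 overlapped in BMPR2 DELX, at 16.2 to 28.6 and 10.9 to 16.4 RPKM, and were apart in ROSA, at 27.7 to 49.2 and 19.3 to 23.5 RPKM. Fbn2 was at most 0.143 RPKM and Eln at most 0.0270 RPKM in any library.

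**Figure D2:**
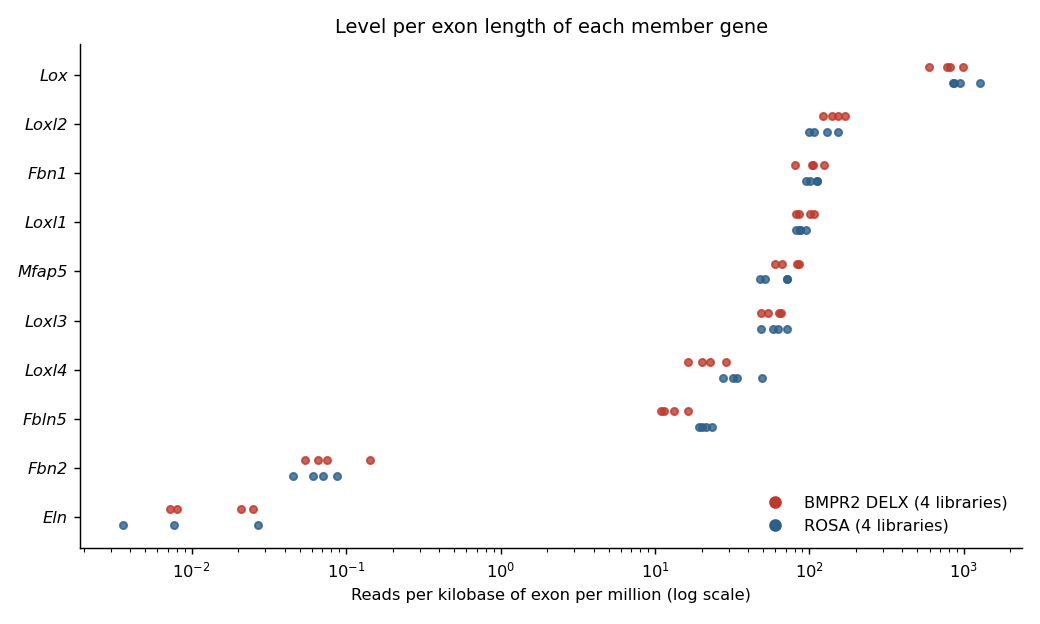
Level of each gene per kilobase of exon on a log axis, with 1 point per library, BMPR2 DELX (red) above ROSA (blue), in the order of the ROSA mean. Lox lies at 593 to 1263 RPKM, most others between 10.9 and 170 RPKM, and Fbn2 and Eln far below. ROSA 3, with 0 counts of Eln, is not drawn for that gene.

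The make-up of the lysyl oxidase transcripts is given as each gene's share of the summed RPKM of the 5 genes, as a description without a test. Lox took 71.0% ± 2.61 of the sum in BMPR2 DELX and 75.9% ± 2.95 in ROSA, with overlap between the groups. Loxl2 took 12.7% to 14.0% in BMPR2 DELX and 8.21% to 11.9% in ROSA, so its share was higher in every mutant library than in any control. Loxl4 took 1.21% to 3.27% in BMPR2 DELX and 1.76% to 4.23% in ROSA. The sum of the family was 1111 ± 194 RPKM in BMPR2 DELX and 1285 ± 203 RPKM in ROSA. Because shares sum to a fixed total, a lower Lox level by itself raises the others.

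**Figure D3:**
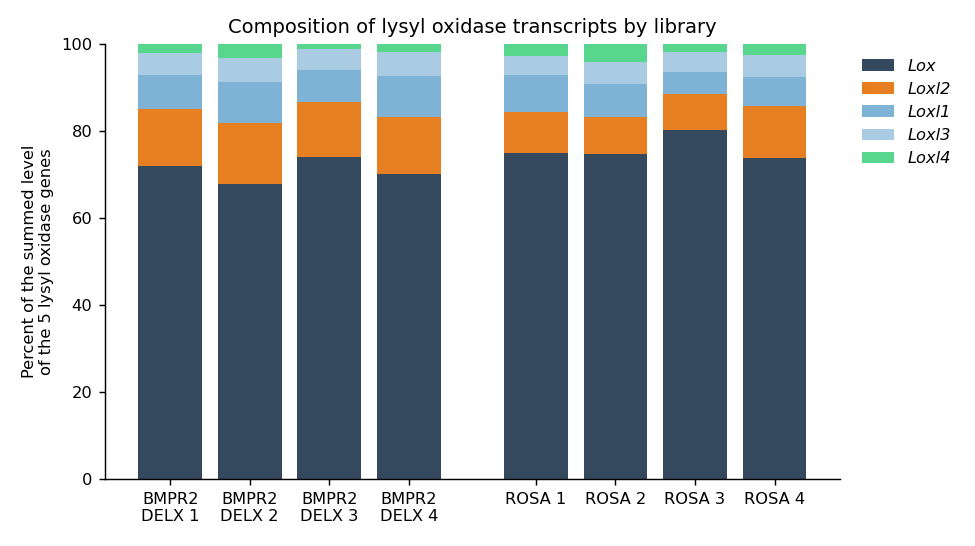
Percent of the summed RPKM of the 5 lysyl oxidase genes taken by each, in 4 BMPR2 DELX libraries (left) and 4 ROSA libraries (right). Lox fills 67.9% to 74.0% of the bars in BMPR2 DELX and 73.8% to 80.3% in ROSA, and the orange Loxl2 segment is thicker in each BMPR2 DELX library than in any ROSA library.

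To find the genes whose pattern was most like that of Lox, log2 CPM profiles over the 8 libraries were compared after subtracting each gene's mean. The search covered 8790 tested genes with a mean of at least 10 CPM, without the members, pseudogenes and genes with predicted or clone names. The closest was Timp1, which encodes an inhibitor of matrix metalloproteinases. Its root mean square difference was 0.08, where the Lox profile itself spread by 0.29. Vamp5, a vesicle membrane protein gene, followed at 0.12 and the membrane protein gene Emp2 at 0.13. The log2 fold change of Timp1 was -0.21 ± 0.14 (edgeR adjusted p 0.37). No such search was possible for Eln, given its few counts.

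Among partners of these genes in fibre assembly, Emilin1, Ltbp4 and Fbln1 rose, as did Mfap2 from few counts, and Efemp1 and Ltbp1 fell. In a list of 22 such partners, 20 could be tested, of which 14 missed the threshold, 4 were higher and 2 lower. That is 30.0% called, against 9.10% of all genes. Their median log2 fold change was 0.15, against 0.005 for all genes tested. For 9 of the 20 the groups did not overlap, against 18.0% of all genes. The list was chosen with earlier results of these data known, and its counts describe it without a test.

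Emilin1, an elastin interface protein, had 140, 139, 162 and 155 CPM in BMPR2 DELX 1 to 4, against 107, 99.7, 88.4 and 94.1 CPM in ROSA 1 to 4. The groups lay well apart, and the log2 fold change was 0.62 ± 0.08 (edgeR adjusted p 0.0033). Mfap2, which encodes microfibril-associated glycoprotein 1, the paralog of Mfap5, had 23, 30, 28 and 38 counts in BMPR2 DELX 1 to 4, against 2, 8, 5 and 7 counts in ROSA 1 to 4. It rose by 2.34 ± 0.32 on the log2 scale (adjusted p 0.0037), a value that rests on few ROSA counts. Mfap2 stayed under 1 CPM in all 8 libraries and passed the count filter only through the mutant libraries, where it was higher. A filter of at least 1 CPM in 4 libraries left it untested. Ltbp4, a latent TGF-beta binding protein that also takes part in elastic fibre assembly, averaged 17.0 ± 1.22 CPM in BMPR2 DELX, against 12.0 ± 0.812 CPM in ROSA (log2 fold change 0.50 ± 0.09, adjusted p 0.010). Fbln1, the gene for fibulin-1, averaged 13.6 ± 3.20 CPM in BMPR2 DELX, against 8.11 ± 0.999 CPM in ROSA (0.74 ± 0.16, adjusted p 0.024). Its call was lost without BMPR2 DELX 2 (edgeR adjusted p 0.053) or without ROSA 2 (0.072).

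Efemp1, the gene for fibulin-3, had 53.0, 74.2, 80.0 and 93.5 CPM in BMPR2 DELX 1 to 4, against 178, 175, 114 and 123 CPM in ROSA 1 to 4. It fell by 0.97 on the log2 scale (SE 0.20, edgeR adjusted p 0.023) and lost the call without BMPR2 DELX 2, ROSA 1 or ROSA 2. Ltbp1, a latent TGF-beta binding protein of the fibrillin family, had 72.4, 80.8, 81.1 and 62.1 CPM in BMPR2 DELX 1 to 4, against 163, 127, 105 and 105 CPM in ROSA 1 to 4. It fell by 0.76 (SE 0.15, adjusted p 0.018) and lost the call without ROSA 2 (0.058). In Efemp1 and Ltbp1 alike, ROSA 1 and ROSA 2 were the highest controls. Mfap4, a microfibril-associated protein gene, came nearest to the threshold without passing, with 0.903 ± 0.272 CPM in BMPR2 DELX, against 0.409 ± 0.126 CPM in ROSA (1.14 ± 0.32, adjusted p 0.052). It had few counts, 23 to 42 per library in BMPR2 DELX and 11 to 17 in ROSA.

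**Figure D4:**
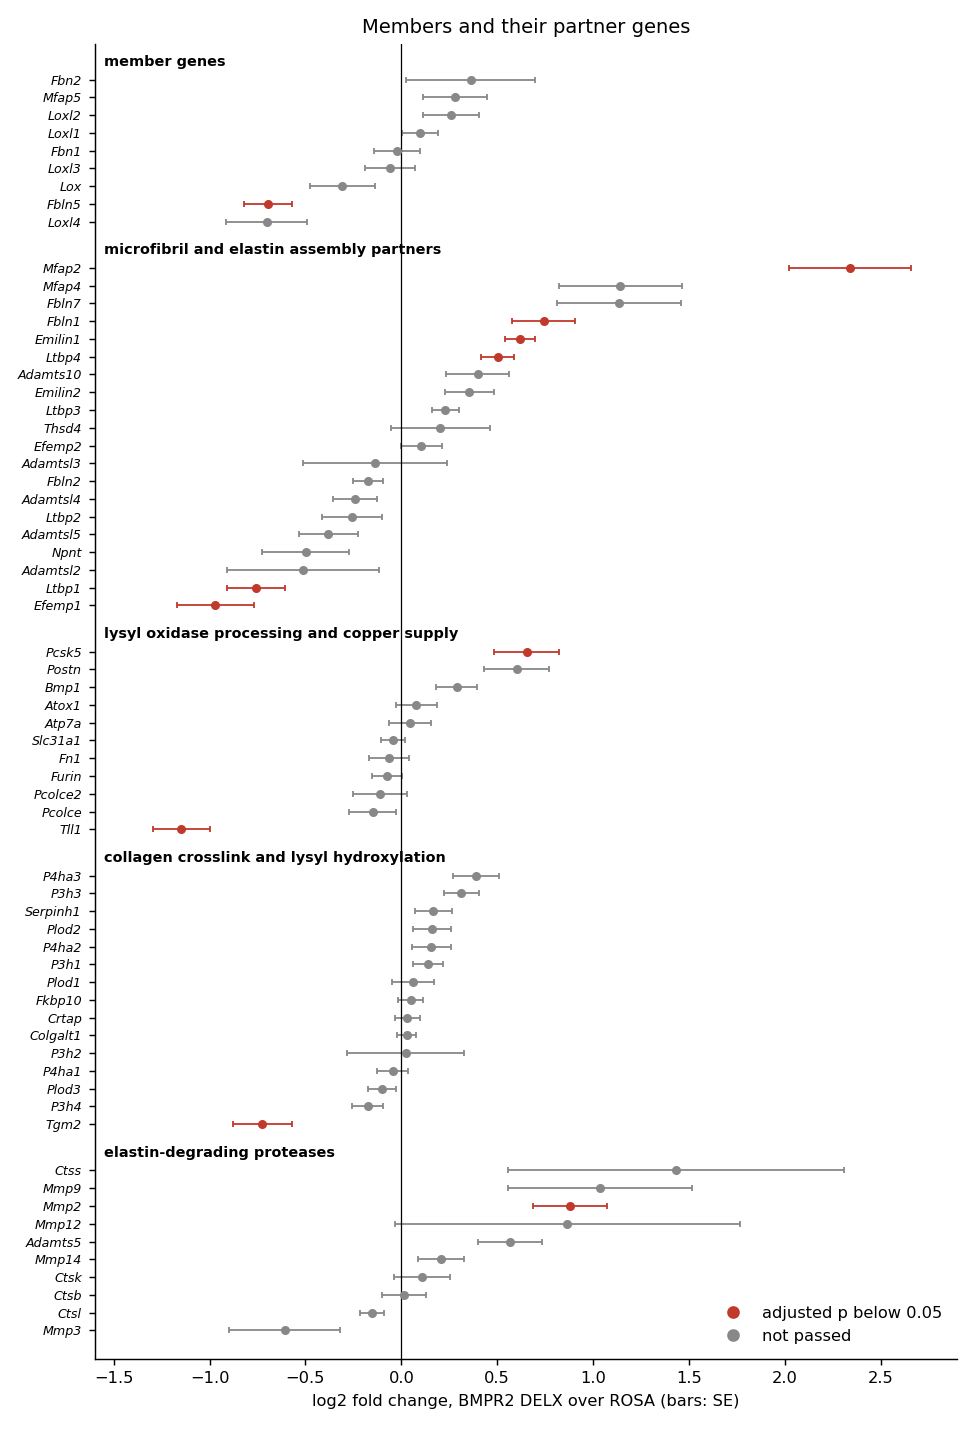
Log2 fold change of BMPR2 DELX over ROSA with its SE for the 9 tested members and the 56 tested genes of 4 partner lists, sorted within each list, with red for an edgeR adjusted p below 0.05. Fbln5 is the red member, at -0.69, and the red partners run from Tll1 at -1.15 to Mfap2, with few counts, at 2.34.

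Among genes that process the lysyl oxidases or supply their copper, Tll1 fell and Pcsk5 rose. Of 12 listed genes 11 could be tested, of which 9 missed the threshold, 1 was higher and 1 lower (18.2% called, against 9.10% of all genes, median log2 fold change -0.04). Tll1, a tolloid-like metalloproteinase of the family that cleaves the lysyl oxidase propeptide, had 94.2, 92.9, 78.7 and 71.7 CPM in BMPR2 DELX 1 to 4, against 209, 194, 208 and 136 CPM in ROSA 1 to 4. It fell by 1.15 on the log2 scale (SE 0.15, edgeR adjusted p 0.0034), to 45.2% of the ROSA level, and was called without each library in turn. Its paralog Bmp1, the main such proteinase, averaged 516 ± 68.1 CPM in BMPR2 DELX, against 422 ± 44.5 CPM in ROSA (0.29 ± 0.11, adjusted p 0.12). Pcsk5, a proprotein convertase gene, rose by 0.65 ± 0.17 (adjusted p 0.041) and lost the call in 5 of 8 fits without 1 library. Postn, which encodes periostin, a matrix protein that binds Bmp1, averaged 429 ± 89.1 CPM in BMPR2 DELX, against 283 ± 48.9 CPM in ROSA (0.60 ± 0.17, adjusted p 0.057). The copper transporter genes Atp7a and Slc31a1, chosen here for their role after their values were seen, had log2 fold changes of 0.04 ± 0.11 and -0.04 ± 0.06 (adjusted p 0.83 and 0.70).

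Of 15 genes for collagen hydroxylation and other crosslinks, 14 missed the threshold, 1 was lower and 0 were higher. That is 6.67% called, against 9.10% of all genes. Tgm2, a transglutaminase that links matrix proteins by another chemistry, had 731, 775, 1041 and 876 CPM in BMPR2 DELX 1 to 4, against 1681, 1229, 1125 and 1627 CPM in ROSA 1 to 4. It fell by 0.73 (SE 0.15, edgeR adjusted p 0.023), and the call was lost without BMPR2 DELX 1, BMPR2 DELX 2 or ROSA 1. P3h3, a prolyl hydroxylase family gene, averaged 70.9 ± 3.44 CPM in BMPR2 DELX, against 57.1 ± 7.65 CPM in ROSA (0.31 ± 0.09, adjusted p 0.059). The list median was 0.05.

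A list of 12 protease genes was drawn up for elastin breakdown, but it also holds Adamts5, known for another substrate. Of the 12 genes 10 could be tested, of which 9 missed the threshold, 1 was higher and 0 were lower. That 1 of 10 is close to the 9.10% called over all genes. Mmp2, the gene for gelatinase A, had 258, 295, 369 and 272 CPM in BMPR2 DELX 1 to 4, against 112, 144, 211 and 182 CPM in ROSA 1 to 4. It rose by 0.88 ± 0.19 (edgeR adjusted p 0.027), with the call lost in 4 of 8 fits without 1 library. Adamts5, a metalloproteinase gene known for cleaving aggrecan, averaged 486 ± 114 CPM in BMPR2 DELX, against 328 ± 41.4 CPM in ROSA (0.57 ± 0.17, adjusted p 0.065). The list median was 0.39, and the macrophage proteases Mmp12 and Ctss, uneven between libraries, had SE values of 0.90 and 0.88.

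**Figure D5:**
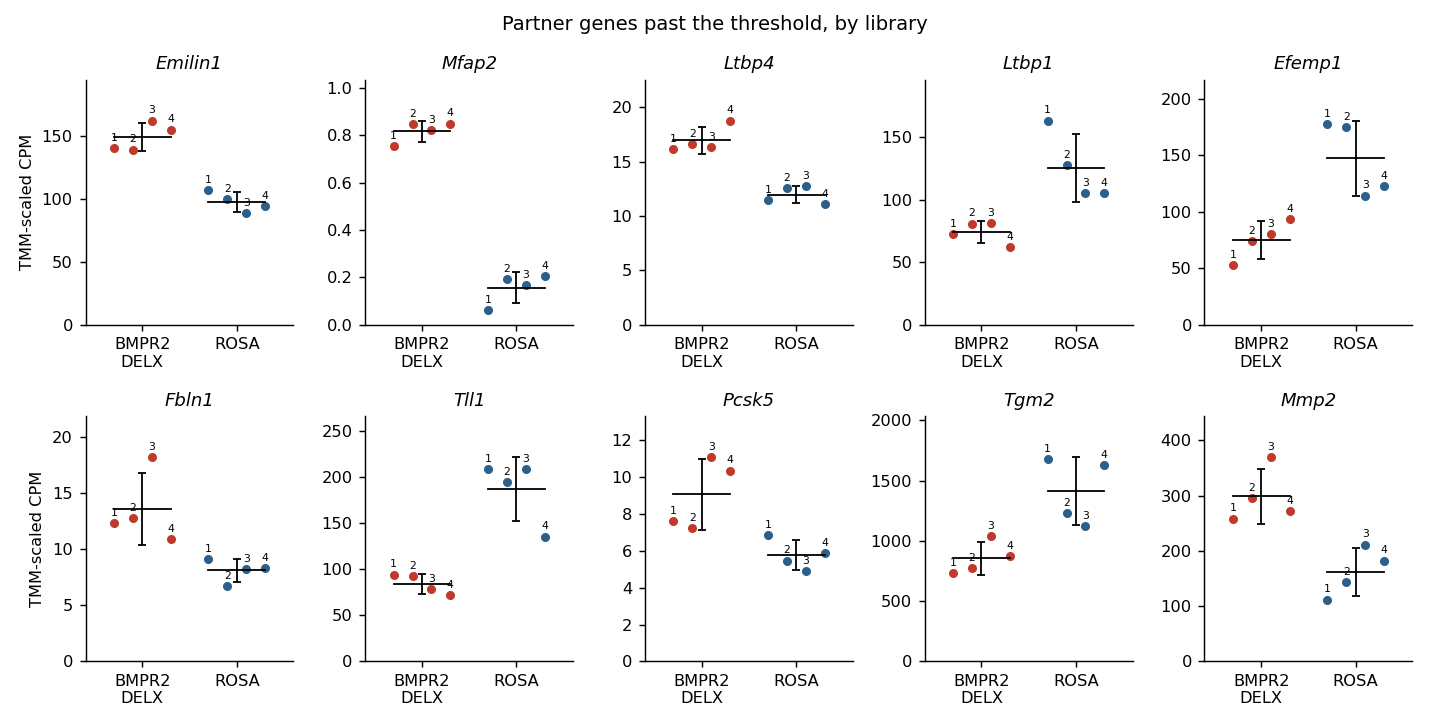
TMM-scaled CPM by library of the 10 partner genes past the threshold, BMPR2 DELX (red) left of ROSA (blue), with library numbers, the mean as a line and ± SD as a bar (n = 4). The groups do not overlap in any panel, but these genes were picked because they passed the test on the same libraries. Over all genes tested, 18.0% had groups that did not overlap. Tll1 lies at 71.7 to 94.2 CPM in BMPR2 DELX, against 136 to 209 CPM in ROSA.

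Without ROSA 1 and ROSA 2, a fit with fewer samples called 64 genes higher and 108 lower in all. In it 2 of the 10 called partner genes were still called, Emilin1 and Mfap2. Of these, Mfap2 had few counts and passed the count filter only through BMPR2 DELX. The log2 fold changes without ROSA 1 and ROSA 2 were 0.52 for Ltbp4, 0.72 for Fbln1, 0.77 for Pcsk5, -0.67 for Tgm2 and -1.01 for Tll1. They were -0.64 for Efemp1, -0.49 for Ltbp1 and 0.62 for Mmp2. Their signs could hardly change, because the groups of these genes did not overlap with all libraries in. Without BMPR2 DELX 3 and ROSA 3, 8 of the 10 were called. Unassigned reads were most frequent in ROSA 1, at 22.0%. The part of the immediate early genes of ROSA 1 and ROSA 2 in these differences and in that of Fbln5 was not tested. Nor was the part of the adipocyte and leukocyte marker sums, the smooth muscle markers and the called markers.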

How the data were processed

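Polyadenylated RNA of 8 samples was sequenced. The genome build GRCm38 and the tools HTSeq and STAR 2.5.2b come from the submitters' processing notes. The deposited files hold raw read counts per Ensembl gene in the layout of STAR's unstranded, same-strand and opposite-strand columns. The annotation release and read filters are not given in the sources used here. The opposite-strand column, with 93.4% of strand-assigned counts, was analysed. The 4 lines that name no gene, with 14.7% to 22.0% of reads, were dropped. GENCODE M21 (GRCm38) supplied symbols, positions and exon lengths.

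Genes were kept with filterByExpr (14887) and tested with the edgeR 4.0.16 quasi-likelihood test in R 4.3.3, with TMM factors, robust dispersion and Benjamini-Hochberg adjustment over all genes, n = 4 per group. The SE is the log2 fold change divided by the square root of F. The model was tested on simulated data. Figures used matplotlib 3.10.9. Alternatives were DESeq2 1.42.0, voom of limma 3.58.1, factors by upper quartile or relative log expression (RLE), other filters, unstranded counts, a replicate block and left-out libraries. The members, partner lists and left-out pairs of libraries were chosen with earlier results of these data known. Named partners are those called in each list (up to 6) plus the nearest not called. The immediate early set, Bmp1, Atp7a, Slc31a1, Mmp12 and Ctss were chosen after values were seen.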

Additional observations from a re-analysis of the deposited data

Results flagged for a closer look

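P3h3 stood out in ROSA 4, at 68.6 CPM, where the other ROSA libraries lay at 52.6 to 54.5 CPM. The gap to the nearest of them was 0.882 of the range of the group. It was the sole such case among 48 groups of 4 libraries examined (24 genes in each group), and chance marks about 1 group in 20.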

How the results depend on the processing

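Fbln5 kept its call in 17 of the 18 other settings, the exception being the fit without ROSA 1 and ROSA 2. Its direction could hardly change, because its groups did not overlap. Lox, Loxl1 and Loxl2 kept their direction and stayed under the threshold in all 18. Loxl4 passed with DESeq2 and with the replicate block (adjusted p 0.0042), and Mfap5 with the replicate block (0.040). The count of members was 2 lower with DESeq2, 1 higher and 2 lower with the replicate block, 0 lower without ROSA 1 and ROSA 2, and 0 higher and 1 lower in every fit without 1 library. The replicate numbers were not treated as pairing the samples, because the labels state no pairing. Same-numbered libraries deviated together with correlations of 0.005, 0.21, 0.25 and 0.093, against -0.24 to 0.18 for differently numbered ones. These values do not settle whether the numbers pair the samples. The block called 563 genes higher and 682 lower in all. Fbn1 reversed to 0.0152 with upper-quartile factors, 0.008 with voom and 0.0008 without BMPR2 DELX 3 and ROSA 3. Without 1 library, Fbn1 ran from -0.12 to 0.0892, Loxl3 from -0.14 to 0.0365 and Fbn2 from -0.01 to 0.53. Over all genes, DESeq2 called 1070 higher and 1228 lower, voom 751 and 887, and the fit with no count filter 680 and 659. The fit without ROSA 1 and ROSA 2 called 64 and 108, that without BMPR2 DELX 3 and ROSA 3 called 222 and 409, and fits without 1 library called 213 to 545 higher and 264 to 721 lower, fewest without ROSA 2. Of the 56 partner genes, 6 were higher and 4 lower (17.9% called, against 9.10% of all genes tested). Mfap2, among the 6, passed the count filter only through BMPR2 DELX. DESeq2 called 13 higher, voom 11 higher, the fit with no count filter 2 lower and the fit without ROSA 1 and ROSA 2 called 2 higher and 0 lower, and fits without 1 library called 3 to 9 higher and 2 to 4 lower. Of the 10 called partner genes, Efemp1 (adjusted p 0.065) and Pcsk5 (0.066) lost their call with the replicate block, and Efemp1 (0.086), Mmp2 (0.091) and Tgm2 (0.056) with no count filter. The cause of these shifts was not tested. Depth limits Eln, Fbn2, Mfap2 and Mfap4, which had under 70 counts in each library.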
